A study of Mus musculus with 2 samples.

Results

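The genes described here are 43 interferon-stimulated genes, taken as a fixed list of gene symbols and read in mouse bone marrow cells of a control library and of a library labelled Utx-deleted. Of these, 42 were found among the 32285 genes of both libraries, and Mx1 was not analysed here. All 42 had at least 1 UMI (unique molecular identifier, a count of captured RNA molecules) in each library, and 41 reached 100 UMIs over both. The exception was Ifit3b, with 24 control UMIs and 14 in the other library. The list was not chosen from expression values, but it was proposed with earlier results of these data known.

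Both libraries held CD45.2+ Kit+ bone marrow cells taken at 10 weeks post-transplantation, 1 of control cells and 1 of cells labelled Utx-deleted. Utx is the protein name of Kdm6a, a histone H3 lysine-27 demethylase encoded on the X chromosome. The allele, the Cre driver, the strain, the sex and the recipients are not given in the sources used here, nor is the number of animals. Cells carried 2 hashtags (barcoded antibodies that label a batch of cells before pooling), whose meaning is not given in the sources used here. With 1 library per group no test between groups was possible, so every difference below compares these 2 libraries, and the hashtag populations show the spread inside a library without standing as replicates. Intervals are exact, at 95%, and cover counting error only.

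After filtering, 7011 control cells and 7206 cells of the other library were kept, with medians of 12367 and 11816.5 gene UMIs per cell. The level of Kdm6a was 110 UMIs per 1000000 gene UMIs (CPM) in control and 103 CPM in the other library. Counting at the 3-prime end sees only the end of a transcript, so this level does not check for a deleted internal exon. Marker UMIs set 4 groups of cells. Stem-marker cells numbered 334 in control and 92 in the other library, progenitor-marker cells 459 and 650, monocyte-marker cells 307 and 581, and neutrophil-marker cells 5127 and 5504. Between 2 and 28 cells per set and library lay within 20% of a threshold. The Kit gate left most cells with low Kit: the median CD117 tag count was 197 and 202.5 in stem-marker cells but 19 and 12 in neutrophil-marker cells. Maturation markers also differed, since the 10 neutrophil markers took a median of 28.4% of a neutrophil-marker cell's UMIs in control and 32.8% in the other library. In stem-marker cells, megakaryocyte markers took 0.0113% of UMIs in control and 0.0317% in the other library, and basophil or mast cell markers 0.0348% and 0.0648%. Summed erythroid markers were also higher there (36.2 and 68.8 CPM), as were neutrophil (1170 and 1400 CPM) and stem markers (4600 and 5720 CPM). The rest were lower, among them monocyte (67.7 and 25.4 CPM), T or NK (201 and 73.3 CPM) and progenitor markers (1140 and 790 CPM). The part of these markers in the results below was not tested.

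Type I interferons signal through a paired receptor, Ifnar1 and Ifnar2, to the kinases Jak1 and Tyk2, which activate a complex holding Stat2 and Irf9 that binds interferon-stimulated response elements (ISREs) near target genes. Type II interferon acts through GAS elements. Their target genes encode sensors of foreign nucleic acid, enzymes that degrade or block viral RNA, and membrane proteins that restrict viral entry or release. In bone marrow, stem cells are known to keep a basal level of many of these genes, and interferon can bring quiescent stem cells into cycle.

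Promoters are shown for 4 members whose behaviour in these cells differed, as described below: Oas3, lower in the library labelled Utx-deleted; Isg15 and Ifit1, whose hashtag populations overlapped; and Ifi209, which was higher. The sequences are from RefSeq (GRCm38.p6), the 250 bases before the annotated start, written 5′ to 3′ on the gene's strand. Capitals mark matches to the ISRE core, read as GAAA, any 2 bases and GAAA again, or on the other strand as TTTC, any 2 bases and TTTC. Oas3 lies on the minus strand (chr5:120777660-120777909), Isg15 on the minus strand (chr4:156200819-156201068), Ifit1 on the plus strand (chr19:34640639-34640888) and Ifi209 on the plus strand (chr1:173630609-173630858).
Oas3: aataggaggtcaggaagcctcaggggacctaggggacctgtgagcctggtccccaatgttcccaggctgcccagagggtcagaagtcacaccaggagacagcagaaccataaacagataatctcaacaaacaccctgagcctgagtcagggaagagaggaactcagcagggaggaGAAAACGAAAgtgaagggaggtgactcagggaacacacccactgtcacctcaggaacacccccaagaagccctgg
Isg15: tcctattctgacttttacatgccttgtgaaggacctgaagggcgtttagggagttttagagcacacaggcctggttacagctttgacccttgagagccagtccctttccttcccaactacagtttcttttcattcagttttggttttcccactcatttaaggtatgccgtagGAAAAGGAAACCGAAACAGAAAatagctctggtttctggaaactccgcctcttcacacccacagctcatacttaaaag
Ifit1: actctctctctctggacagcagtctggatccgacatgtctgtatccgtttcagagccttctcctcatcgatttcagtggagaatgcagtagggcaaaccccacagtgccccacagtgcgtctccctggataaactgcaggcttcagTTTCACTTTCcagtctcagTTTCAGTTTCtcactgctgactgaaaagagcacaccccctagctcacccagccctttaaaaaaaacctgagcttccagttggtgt
Ifi209: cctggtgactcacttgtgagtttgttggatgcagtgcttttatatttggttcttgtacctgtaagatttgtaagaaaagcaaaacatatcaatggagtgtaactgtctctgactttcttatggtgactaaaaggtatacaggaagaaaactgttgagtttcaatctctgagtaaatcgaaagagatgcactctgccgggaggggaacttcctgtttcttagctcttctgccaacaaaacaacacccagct
Oas3 held 1 match, at -75 from the start. Isg15 held 3 overlapping matches, at -78, -72 and -66, and Ifit1 held 2, at -104 and -85. These letters were not found in the Ifi209 window. Over windows of 300 bases (250 before and 50 after the start), an ISRE core on either strand was found in 19 of the 37 windows of the 33 members with an entry (51.4%), against 3.44% of all 32851 windows in the table. The GAS core TTCNNNGAA was found in 7 of the 37 (18.9%), against 8.3% of all windows. The 9 members with no entry were Dhx58, Zbp1, Ifi204, Oas2, Usp18, Parp9, Parp14, Rtp4 and Ifi27l2a. A match describes the sequence and is not a binding site.

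Summed over members, interferon-stimulated genes took a smaller share of UMIs in the library labelled Utx-deleted than in control in each of the 4 cell sets. In stem-marker cells the share was 0.128% and 0.135% in control hashtags 1 and 2, and 0.0962% and 0.0874% in the other library's hashtags 1 and 2. Both populations of the library labelled Utx-deleted lay below both control populations, with a library log2 ratio of -0.53 (-0.60 to -0.47), the largest difference among the 4 sets. In neutrophil-marker cells the 4 values, in the same order, were 0.129%, 0.145%, 0.115% and 0.113%. The populations did not overlap, and the log2 ratio was -0.30, but it was -0.16 for hashtag 1 and -0.35 for hashtag 2. Median shares per cell were lower too, at 0.118% against 0.0848% in stem-marker cells and 0.129% against 0.103% in neutrophil-marker cells.

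In progenitor-marker cells the shares were 0.0689%, 0.0738%, 0.0632% and 0.0620%, for a log2 ratio of -0.19. In monocyte-marker cells they were 0.0899%, 0.0913%, 0.0871% and 0.0719%, for a log2 ratio of -0.24. The difference there was -0.046 in hashtag 1, with an interval spanning 0 (-0.10 to 0.012), and -0.35 in hashtag 2. A single abundant member made up much of both differences. Without Ifitm3 the log2 ratio was -0.094 in progenitor-marker and -0.085 in monocyte-marker cells, while it was still -0.52 in stem-marker and -0.23 in neutrophil-marker cells. The neutrophil-marker value was then -0.07 for hashtag 1 and -0.33 for hashtag 2. Without Ifitm3 the monocyte-marker ratio was 0.05 for hashtag 1 and -0.15 for hashtag 2, and the populations overlapped. Without Ifitm3, Bst2 and Ifi27l2a it was -0.015.

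**Figure D1:**
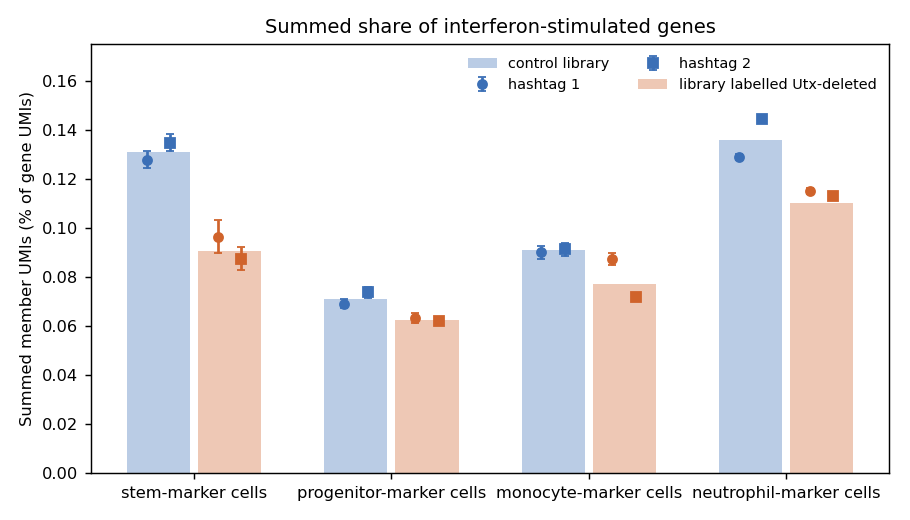
Summed UMIs of the 42 members as a percentage of all gene UMIs (y axis) in the 4 marker-defined cell sets (x axis). Bars give each library, circles hashtag 1 and squares hashtag 2, with exact 95% Poisson intervals on the points that cover counting error only. Both populations of the library labelled Utx-deleted lie below both control populations in every set, by the widest margin in stem-marker cells. The intervals of the hashtag 1 populations overlap between libraries in monocyte-marker cells.

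Single members were compared where they had at least 100 UMIs in a cell set over both libraries. In stem-marker cells 25 of 27 such members had a ratio below 0, against 50.5% of all genes, and the median log2 ratio over members with at least 20 UMIs was -0.60, against 0.01 for all genes. With hashtag 1 alone the member median was -0.29. Both hashtag populations of the library labelled Utx-deleted lay below both control populations for 21 of the 27, against 26.7% of genes. In neutrophil-marker cells 29 of 39 members were below 0, against 56.8% of genes, with medians of -0.22 and -0.03. There 19 of 39 lay below without overlap, against 43.5% of genes, a share near the background. For progenitor-marker cells the counts were 19 of 27 below 0 (background 55%) and 6 of 27 without overlap (background 33%). In monocyte-marker cells they were 15 of 25 (background 52.6%) and 6 of 25 (background 30.6%). In these 2 sets a smaller share of members than of all genes lay below without overlap.

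Few members differed by 2-fold. Of 39 members in neutrophil-marker cells, 5 stood lower than in control by 2-fold or more (Zbp1, Ifi204, Oas2, Oas3 and Rtp4), where 2.99% of all genes did, and 1 was at least 2-fold higher (Ifi209; background 2.13%). In stem-marker cells 4 of 27 were 2-fold lower (Oasl2, Rtp4, Ifi44 and Igtp; background 2.85%) and none higher (background 0.835%). In progenitor-marker cells 1 of 27 was 2-fold lower (Ifitm3; background 1.35%) and 1 higher (Ifi209; background 0.864%). In monocyte-marker cells 1 of 25 was 2-fold lower (Ifitm3 again; background 1.56%) and none higher (background 0.873%). Over all kept cells 38 of 41 members had a ratio below 0 (background 70.5%) and 26 lay below without overlap (background 43.7%). Of the same 41, 5 were 2-fold lower (Zbp1, Oas2, Oas3, Rtp4 and Ifi44), against 5.36% of genes, and none was higher, against 1.39%. Scaling by TMM in place of total UMIs would move each pooled log2 ratio up by 0.12. The pooled comparison also carries the differing numbers of each cell type. Fewer cells of a type and less RNA per cell cannot be told apart there.

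**Figure D2:**
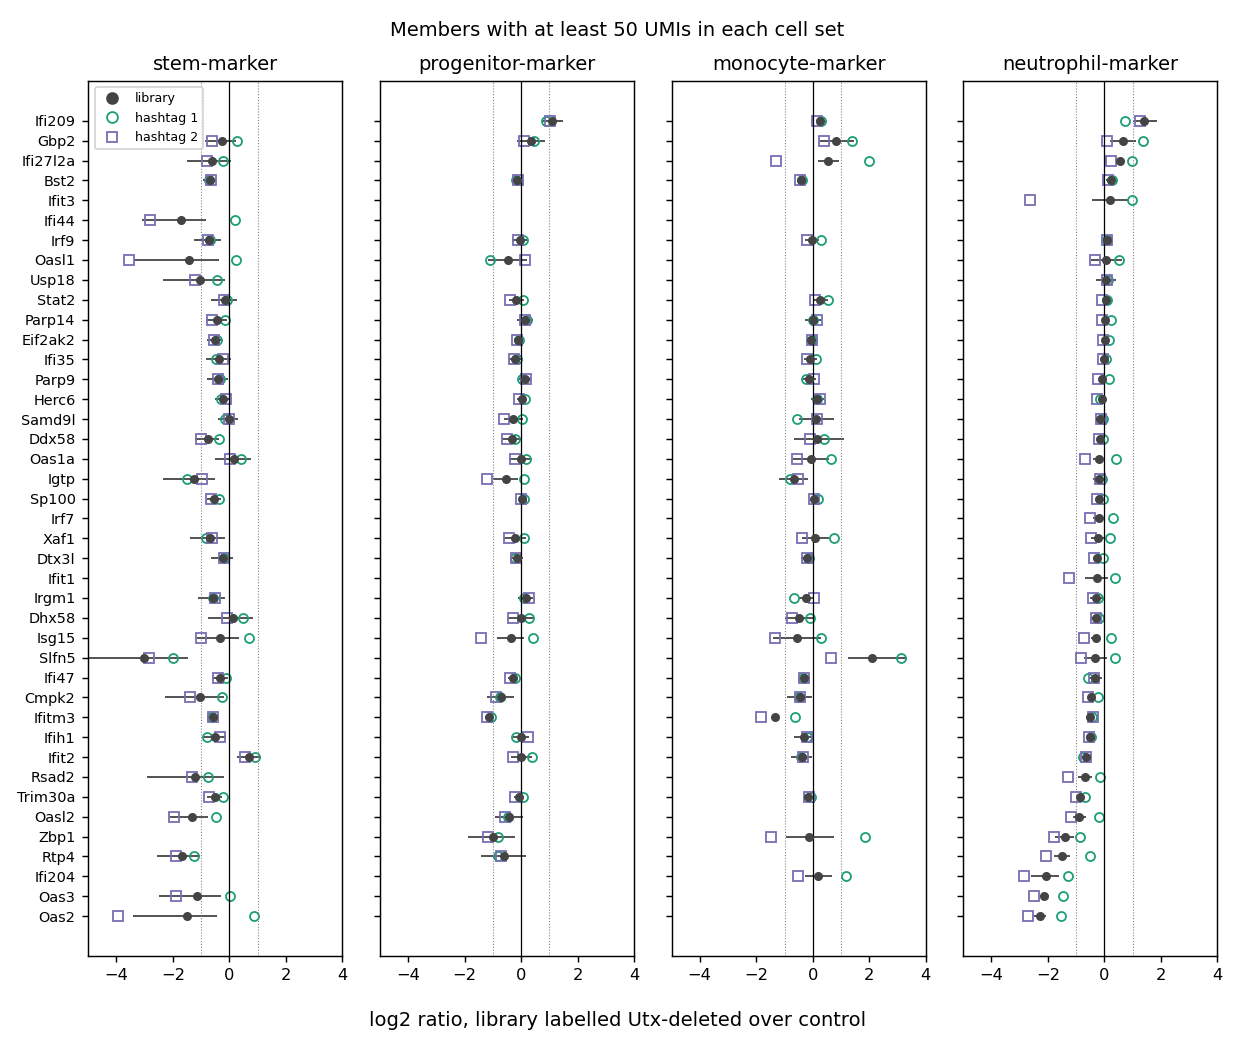
Log2 ratio of the library labelled Utx-deleted over control (x axis) for each member with at least 50 UMIs in a cell set (rows, ordered by the ratio in neutrophil-marker cells). Filled points are library ratios with exact 95% intervals, open circles hashtag 1, open squares hashtag 2, and dotted lines mark 2-fold. The interval of Slfn5 in stem-marker cells runs to -9.34, past the axis; Oas2, Oas3 and Ifi204 sit lowest in neutrophil-marker cells, and Ifi209 highest.

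The OAS family makes 2′-5′ oligoadenylates on binding double-stranded RNA, which switch on the ribonuclease RNase L. Its members were lower in the library labelled Utx-deleted for 4 of 5 in neutrophil-marker cells (median log2 ratio -0.89) and 4 of 5 in stem-marker cells (median -1.34, on few UMIs). Among all genes with at least 100 UMIs, 56.8% and 50.5% were below 0 in these sets. The OAS counts took members from 20 UMIs, so the stem-marker shares are not like for like. The size of the difference varied between OAS members. Oas2 stood at 11.4 and 19.7 CPM in control hashtags 1 and 2 and at 3.92 and 2.98 CPM in those of the other library. Oas3, which neighbours Oas2 on chromosome 5, stood at 19.3, 33.7, 7.04 and 5.95 CPM in the same order. For both genes the populations did not overlap, and control hashtag 2 was the highest. The log2 ratios were -2.26 (-2.48 to -2.06) for Oas2 and -2.12 (-2.28 to -1.97) for Oas3, or 4.8-fold and 4.36-fold lower. Oas2 was -1.53 between hashtag 1 populations and -2.71 between hashtag 2 populations.

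The other OAS genes differed less in these cells. Oasl2, an OAS-like protein, was 4.21, 8.08, 3.71 and 3.51 CPM, non-overlapping, with a log2 ratio of -0.89. Oas1a, which is part of a cluster of near-identical copies and so uncertain, gave 4.77, 6.43, 6.41 and 3.98 CPM and overlapped. Oasl1 was under 2 CPM throughout with a log2 ratio of 0.06. In stem-marker cells Oasl2 was 20.9, 26.9, 13.9 and 6.34 CPM, a log2 ratio of -1.34 (-2.10 to -0.75), while Oas1a was 10.2, 11.5, 12.7 and 11.4 CPM, a ratio of 0.16 whose interval spans 0. Oas2, Oas3 and Oasl1 were rare there but also lower, with 56, 74 and 54 UMIs in control and 5, 9 and 5 in the other library (-1.50, -1.16 and -1.45). The populations overlapped for Oas2 and Oasl1, whose hashtag 1 ratios were 0.86 and 0.24. Oas2 and Oas3 were almost undetected in monocyte-marker cells, with 6 and 22 UMIs.

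Neutrophil-marker cells span maturation stages, so they were split at the median share of Retnlg, a gene of late neutrophils (a split added after the data were seen). Oas2 was 8.49 CPM in control and 1.51 in the other library among cells low in Retnlg, and 27.7 against 6.04 CPM among cells high in it. Oas3 was 9.40 against 1.48 CPM and 53.9 against 13.1 CPM. Both genes were thus higher in the Retnlg-high cells of each library and lower in the library labelled Utx-deleted on either side of the split. Rtp4 behaved alike, at 1.89 against 0.903 CPM and 13.5 against 4.28 CPM. Over all members the log2 ratio was -0.32 in Retnlg-low and -0.31 in Retnlg-high cells. Ifitm3 weighed unequally in these sums, with its own ratio at -0.93 in Retnlg-low and -0.19 in Retnlg-high cells. Among Retnlg-low cells it gave 11700 of 38910 member UMIs in control and 7021 of 35744 in the other library. Sums without Ifitm3 were not taken on either side of the split, so the near-equal values do not show that the other members differed alike.

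Among the nucleic acid sensors, Zbp1 and Ifi204 were lower and Ifi209 higher in neutrophil-marker cells of the library labelled Utx-deleted. Zbp1, which binds Z-form nucleic acid and triggers necroptosis, was 3.34, 4.21, 1.82 and 1.2 CPM, a log2 ratio of -1.40 (-1.76 to -1.06). Ifi204, a DNA-binding member of the PYHIN family, was 1.58, 4.35, 0.63 and 0.568 CPM, a ratio of -2.07 (-2.59 to -1.62). Control hashtag 2 was again the highest for both, and neither overlapped. The Ifi204 difference lay in Retnlg-high cells (6.83 against 1.01 CPM), while Retnlg-low cells had 0.531 and 0.463 CPM. Zbp1 was also lower in progenitor-marker cells, at 2.10, 3.0, 1.12 and 1.31 CPM, with a log2 ratio of -1.0 on 55 UMIs.

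Ifi209, a PYHIN gene of the same chromosome 1 cluster as Ifi204, ran the other way. It was most abundant in monocyte-marker cells, at 91.4, 115, 113 and 128 CPM, where the populations overlapped and the log2 ratio was 0.25. In progenitor-marker cells it was 4.69, 7.23, 8.81 and 14.9 CPM, non-overlapping, with a ratio of 1.09 (0.73 to 1.5). With marker thresholds doubled that ratio was 0.18. In neutrophil-marker cells it was 0.751, 1.06, 1.26 and 2.61 CPM, a ratio of 1.41, which became 1.08 without cells carrying both hashtags and 0.36 with thresholds doubled. Of 10 monocyte markers, 7 were higher in neutrophil-marker cells of the library labelled Utx-deleted, and their sum was 50.4 CPM in control and 79.5 CPM in the other library. Over the 4 populations the sum was 49.7, 48.2, 34.5 and 65.4 CPM. In progenitor-marker cells 4 of 10 were higher and the sum was 151, 182, 345 and 314 CPM, mostly F13a1 (61.2 and 200 CPM) and Ms4a6c (54.2 and 87.7 CPM). Their part in the Ifi209 ratios was not tested. In stem-marker cells 15 control UMIs stood against 0. Reads of PYHIN genes may be split between near copies, so these levels are uncertain.

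The remaining sensors differed less. Eif2ak2 (PKR), the kinase that stops translation on binding double-stranded RNA, was 38.0, 41.0, 42.6 and 39.4 CPM in neutrophil-marker cells, a log2 ratio of 0.02. In stem-marker cells it was 86.0, 83.0, 62.4 and 55.8 CPM, non-overlapping, a ratio of -0.53. Ddx58 (RIG-I) and Ifih1 (MDA5), the cytosolic RNA helicases upstream of Mavs, were lower in both sets. Their stem-marker ratios were -0.75 and -0.50, without overlap, and their neutrophil-marker ratios were -0.17 and -0.53, also without overlap. Dhx58 (LGP2), their regulator, gave 7.12, 7.92, 9.24 and 6.97 CPM in stem-marker cells and overlapped (0.11), while in neutrophil-marker cells it was -0.31 without overlap.

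The IFIT genes, which bind viral RNA lacking host cap methylation, are a cluster on chromosome 19. The direction of Ifit2 differed between cell sets, a difference that was not tested. In stem-marker cells it was 18.1, 18.5, 33.5 and 26.6 CPM, higher in both populations labelled Utx-deleted than in either control population, at a log2 ratio of 0.70 (0.26 to 1.10). In neutrophil-marker cells it was 15.6, 15.3, 9.21 and 9.73 CPM, lower without overlap, with a ratio of -0.66. Progenitor-marker cells lay between, with overlapping populations and a ratio of 0.01. Ifit1 in neutrophil-marker cells was 1.35, 1.95, 1.79 and 0.802 CPM, and the populations overlapped. Ifit3 and Ifit3b, near-identical copies and so uncertain, had 85 and 32 UMIs there and overlapped.

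Isg15, the ubiquitin-like protein conjugated to other proteins after interferon, showed no difference that both hashtags shared in neutrophil-marker or monocyte-marker cells. In neutrophil-marker cells it was 8.23, 11.7, 9.63 and 7.05 CPM. Between hashtag 1 populations the log2 ratio was 0.23, and between hashtag 2 populations -0.72. In monocyte-marker cells it was 2.24, 2.33, 2.82 and 0.90 CPM on 52 UMIs, again overlapping. Relative to all gene UMIs it was lower, with overlapping populations, in stem-marker cells (87 control UMIs and 20 in the other library). The same held in progenitor-marker cells (75 and 73 UMIs). Usp18, the protease that removes Isg15 and restrains the interferon receptor, also overlapped in neutrophil-marker cells, with a ratio of 0.05. In the other sets it was lower without overlap, on fewer UMIs. It had 68 control UMIs and 9 in the other library in stem-marker cells (-1.04), 19 and 11 in progenitor-marker cells (-1.07, interval spanning 0), and 28 and 19 in monocyte-marker cells (-1.21).

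Trim30a, a ubiquitin ligase of the TRIM family, had the lowest ratio of this group in neutrophil-marker cells. It stood at 36.2, 41.8, 22.5 and 20.8 CPM there, lower in both populations labelled Utx-deleted than in either of control, at a log2 ratio of -0.86 (-0.96 to -0.77). In stem-marker cells it was 86.7, 75.4, 73.9 and 45.7 CPM (-0.52), and in progenitor-marker and monocyte-marker cells it overlapped. Herc6, the mouse ligase for Isg15, and the partners Dtx3l and Parp9 were between -0.26 and -0.08 in neutrophil-marker cells, and Parp14 was 0.03. Dtx3l and Parp9 overlap on opposite strands, so a share of their UMIs may be misassigned if strand was not used.

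Ifitm3, a membrane protein that blocks viral fusion, had the most UMIs of any member. UMI counts at the 3-prime end are not scaled by gene length, so this order is one of counts. In neutrophil-marker cells it stood at 368, 403, 273 and 304 CPM, a log2 ratio of -0.50 (-0.53 to -0.47). That ratio was -0.93 in Retnlg-low cells (311 against 163 CPM) and -0.19 in Retnlg-high cells (504 against 443 CPM). In stem-marker cells it was 211, 209, 136 and 139 CPM, a ratio of -0.59. Progenitor-marker cells had 84.5, 85.9, 40.4 and 37.1 CPM, a ratio of -1.13 (-1.27 to -0.99). Populations of the 2 libraries were apart in each of these sets. Monocyte-marker cells had 155, 169, 100 and 47.8 CPM, a ratio of -1.33, but -0.62 between hashtag 1 populations and -1.82 between hashtag 2 populations. Ifitm3 was thus lower in all 4 sets, without overlap.

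Bst2 (tetherin), which holds budding virus at the cell surface, was lower in 3 sets and slightly higher in the other. It was 110, 115, 64.7 and 71.6 CPM in stem-marker cells (log2 ratio -0.69), 139, 137, 123 and 126 CPM in progenitor-marker cells (-0.15), and 162, 166, 125 and 122 CPM in monocyte-marker cells (-0.42). In neutrophil-marker cells it was 7.89, 8.80, 9.59 and 9.69 CPM (0.22). None of the 4 sets showed overlap. In neutrophil-marker cells, 7 of 9 stem markers were also higher in the library labelled Utx-deleted, with sums of 34 and 59.4 CPM in the libraries and 29.4, 31.3, 54.6 and 47.4 CPM over the populations. Monocyte markers, 7 of 10 higher, gave the sums stated above for Ifi209. Of 5 progenitor markers 2 were higher, with sums of 1350 and 1300 CPM in the libraries and 1400, 1040, 679 and 1210 CPM over the populations. The part of these in the Bst2 ratio was not tested.

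Rtp4, a chaperone of membrane receptors with antiviral activity, was 3.68, 8.69, 2.59 and 2.07 CPM in neutrophil-marker cells, a log2 ratio of -1.49 (-1.78 to -1.22). Control hashtag 2 held the highest level, and the hashtag 1 populations differed by only -0.50. In stem-marker cells Rtp4 was 18.8, 28.1, 6.93 and 6.97 CPM, a ratio of -1.68 (-2.56 to -1.03), lower in both populations. Ifi27l2a, a small mitochondrial or membrane protein, was higher in neutrophil-marker cells of the library labelled Utx-deleted, at 13, 18.4, 25.9 and 21.8 CPM (0.54). In stem-marker cells it was lower without overlap, with 97 control UMIs and 18 in the other library (-0.62, interval spanning 0). In monocyte-marker cells its 7.1, 9.69, 29.0 and 3.96 CPM put hashtag 1 of that library above and hashtag 2 below both control populations. There, 120 of its 210 UMIs came from 5 cells.

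**Figure D3:**
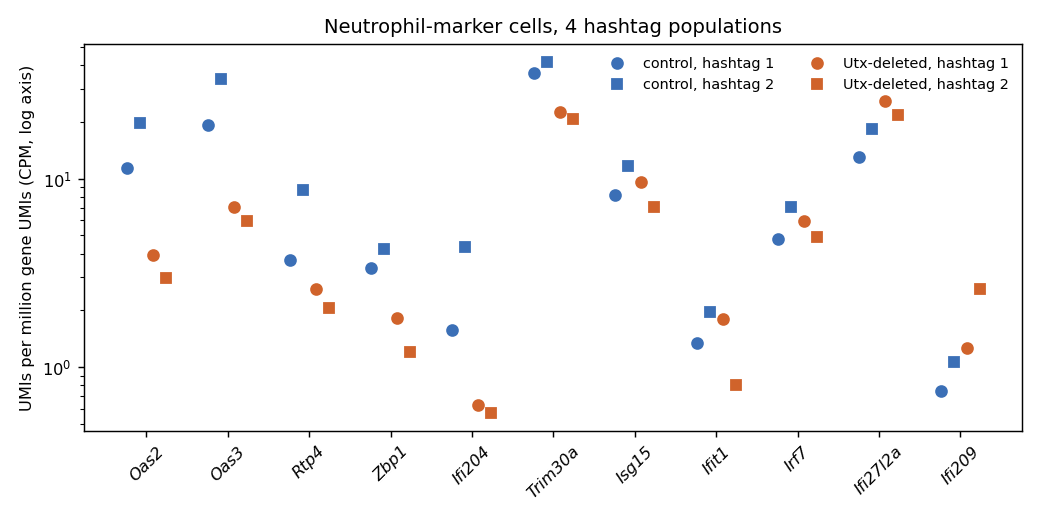
Level of 11 members (x axis) in neutrophil-marker cells, in CPM on a log axis (y axis). Blue is the control library and orange the library labelled Utx-deleted; circles are hashtag 1 and squares hashtag 2, each point a sum over cells. Oas2, Oas3, Rtp4, Zbp1, Ifi204 and Trim30a are lower in both orange populations, Isg15, Ifit1 and Irf7 overlap, and Ifi27l2a and Ifi209 are higher.

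The transcription factors of the pathway differed little in neutrophil-marker cells, where the 4 had a median log2 ratio of -0.07. In stem-marker cells all 4 were below 0, with a median of -0.57. The background there, 50.5%, covers genes with at least 100 UMIs, which Irf7 did not reach (40 control UMIs and 7 in the other library). Irf7, which amplifies interferon transcription, was 4.81, 7.09, 5.95 and 4.91 CPM in neutrophil-marker cells and overlapped. Irf9 was 27.0, 26.8, 28.7 and 28.7 CPM there (log2 ratio 0.08), and Stat2 overlapped (0.04). In stem-marker cells Irf9 was 25.7, 34.1, 15 and 19.7 CPM, lower without overlap (-0.73). Irf9 overlaps Rnf31 on the same strand, which leaves its level uncertain. Sp100, a nuclear body protein, was 294, 320, 283 and 267 CPM in neutrophil-marker cells (-0.19) and 96.4, 106, 73.9 and 66.6 CPM in stem-marker cells (-0.54), without overlap in either.

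Of the other antiviral effectors, Samd9l, an inhibitor of translation and of cell growth, was 195, 209, 188 and 190 CPM in neutrophil-marker cells, where the populations stood apart by a small margin (log2 ratio -0.15). Cmpk2, a mitochondrial nucleotide kinase, was 34.5, 42.2, 29.4 and 27.9 CPM there (-0.46) and 4.82, 9.18, 2.80 and 4.95 CPM in progenitor-marker cells (-0.73, overlapping). Rsad2 (viperin), its neighbour, which makes a chain-terminating nucleotide, was 4.62, 7.74, 4.17 and 3.18 CPM in neutrophil-marker cells (-0.69). Cmpk2, Rsad2 and Samd9l were each lower there without overlap. Slfn5 (-0.32) and Xaf1 (-0.22) overlapped, and Ifi35 was at -0.01.

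Slfn5, of the Schlafen family, and Ifi44 were sparse and uneven. In stem-marker cells Slfn5 had 54 control UMIs and 1 in the other library, a log2 ratio of -3.03 (-9.34 to -1.47). In monocyte-marker cells it was 0.935, 0.969, 9.71 and 1.71 CPM, a ratio of 2.09, but 36 of its 74 UMIs in the library labelled Utx-deleted came from 5 cells. Ifi44 in stem-marker cells was 5.85, 17.8, 5.78 and 1.90 CPM. Its ratio of -1.70 came from hashtag 2 (-2.83). Hashtag 1 gave 0.18 with 1 UMI added to each sum, while its levels without that were nearly equal.

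The interferon-inducible GTPases coat pathogen vacuoles and respond mainly to type II interferon. Igtp (Irgm3) was 13, 12.2, 3.47 and 5.71 CPM in stem-marker cells, a log2 ratio of -1.27 (-2.37 to -0.50), and 6.35, 5.81, 3.53 and 4.05 CPM in monocyte-marker cells (-0.68). It was lower without overlap in both, though it overlaps Irgm2 on the same strand and is uncertain. Gbp2, a guanylate-binding protein, was higher in monocyte-marker cells, at 2.24, 4.07, 6.18 and 5.58 CPM (0.81), and in neutrophil-marker cells, at 0.751, 1.33, 2.0 and 1.44 CPM (0.65). Few cells carried these levels: in the library labelled Utx-deleted 37 of 97 monocyte-marker UMIs and 38 of 116 neutrophil-marker UMIs lay in 5 cells. In stem-marker cells Gbp2 had 153 control UMIs and 37 in the other library (-0.27, interval spanning 0). In progenitor-marker cells it was 3.70, 4.76, 5.17 and 5.25 CPM (0.33, interval spanning 0). Irgm1, a regulator of autophagy, was 16.1, 13.6, 17.2 and 16.5 CPM in progenitor-marker cells (0.17, interval spanning 0). It was lower without overlap in stem-marker (-0.60) and neutrophil-marker cells (-0.28). Ifi47 was between -0.32 and -0.30 in the 4 sets.

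The hashtags differed inside each library, in opposite directions in neutrophil-marker, stem-marker and progenitor-marker cells. In control neutrophil-marker cells 36 of 41 members were higher in hashtag 2 than in hashtag 1, with a median log2 ratio of 0.29 against -0.02 for all genes. In the library labelled Utx-deleted only 8 of 40 were, with a median of -0.16 against 0.01. Stem-marker cells gave 28 of 38 in control and 8 of 23 in the other library. Their medians were 0.20 and -0.16, against -0.006 and -0.001 for all genes. Progenitor-marker cells gave 22 of 30 and 12 of 32, with medians of 0.16 and -0.07, against -0.01 and 0.04. Their summed log2 ratio of hashtag 2 over hashtag 1 in the library labelled Utx-deleted was -0.028, with an interval spanning 0. Monocyte-marker cells did not share this pattern, with 13 of 29 in control and 6 of 31 in the other library. Their medians were -0.10 and -0.30, against -0.009 and 0.009. The share of all genes higher in hashtag 2 was not counted. The summed difference between libraries was smaller for hashtag 1 than for hashtag 2 in each cell set, at -0.41 and -0.63 in stem-marker cells. Whether hashtags mark animals, sorts or repeats cannot be told from the labels.

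Which cell set held a member's highest level was largely shared between the libraries. Of 41 members, 26 were highest in stem-marker cells of control and 19 in those of the other library, and the 19 were all among the 26. Neutrophil-marker cells held the highest level of 12 and 14 members (11 shared), and monocyte-marker cells that of 3 and 6 (2 shared). Progenitor-marker cells held that of none in control and of 2 in the other library. The share of all genes highest in each set was not counted, so whether these counts are particular to the members cannot be told. Stem-marker cells of the library labelled Utx-deleted were few, with 2211 member UMIs in all, against 10750 in control.

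Some members were spread over neutrophil-marker cells and others concentrated in few. For each member, cells were ranked by the share of UMIs from all other members, and the top 1% of cells (52 in control and 56 in the other library) were set apart. An even spread over UMIs would put 0.487% to 0.535% of a member's UMIs in these cells in control and 0.569% to 0.594% in the other library, the share of all UMIs that they held. Ifit1 had 15.6% of its UMIs in them in control and 67.6% in the library labelled Utx-deleted. Gbp2 had 7.94% and 40.5%, and Rsad2 19.3% and 34.7%. Sp100, at 1.48% and 1.71%, and Samd9l, at 1.34% and 1.68%, were less concentrated but still above an even spread: Sp100 was 897 CPM inside the top cells and 301 CPM outside in control, and 777 and 264 CPM in the other library. At least 10% of UMIs lay in the top cells for 11 of 39 members in control and 13 of 38 in the other library. The share of all genes past this cut was not counted.

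In the library labelled Utx-deleted a small group of cells thus held most Ifit1 UMIs, 53 of 105 of them in 5 cells, which was not so in control. The Oas2 and Oas3 differences were also present outside the top cells. In the remaining cells, Oas2 was 15.1 CPM in control and 2.86 in the other library, and Oas3 24.4 and 5.19. Ifit1 outside the top cells was 1.54 and 0.488 CPM, and Gbp2 was 0.973 and 0.991 CPM, so that its higher level lay in the top cells. The top cells came unequally from the control hashtags, 14 from hashtag 1 and 37 from hashtag 2, against 27 and 26 in the other library. Their median depth, 5910.5 and 6724.5 UMIs, was below that of neutrophil-marker cells at large, 9851 and 9911.5, and its part in the ranking was not tested.

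**Figure D4:**
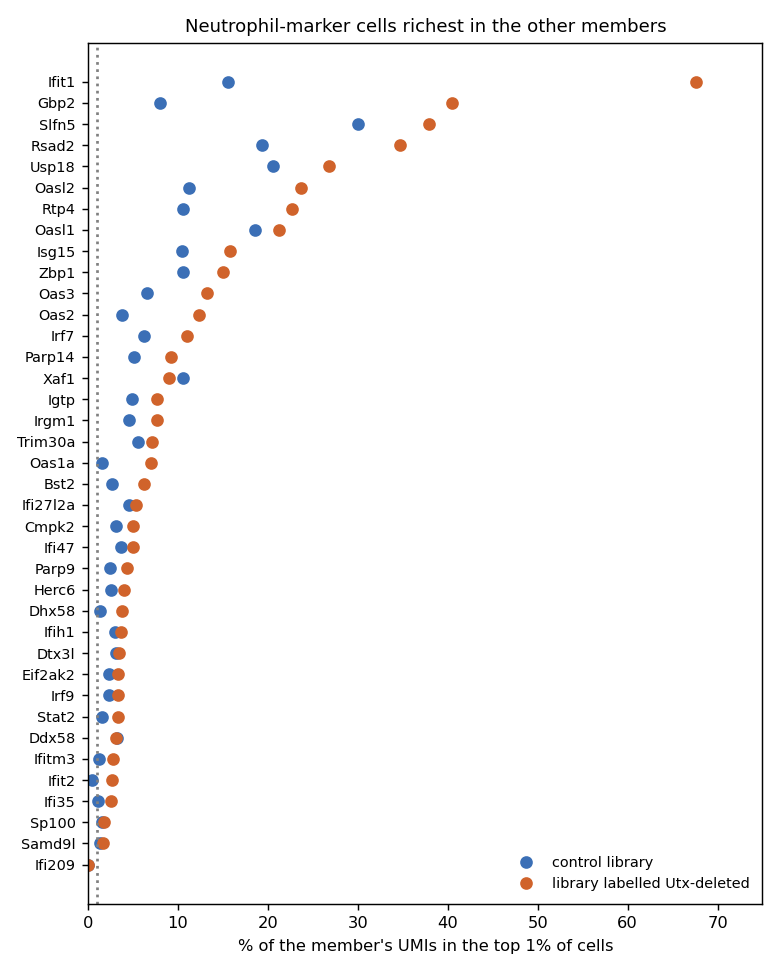
Percentage of a member's UMIs (x axis) that lay in the 1% of neutrophil-marker cells with the largest share of UMIs from the other members, for members with at least 50 UMIs in a library (rows). Blue is control, orange the library labelled Utx-deleted, and the dotted line marks 1% of UMIs; the top cells held under 0.6% of all UMIs. Ifit1, Gbp2, Slfn5 and Rsad2 reach the highest values in the library labelled Utx-deleted, Sp100 and Samd9l lie between 1.34% and 1.71%, and Ifi209 is at 0.

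Upstream of the members, ligands were all but undetected, and receptors were near control in neutrophil-marker cells but not all in stem-marker cells. Of 11 interferon ligand genes, 9 had 0 UMIs over all kept cells; Ifng had 2 in each library and Ifnk had 4 and 12. None of the 12 receptor and transducer genes with 100 UMIs in neutrophil-marker cells differed by 2-fold (background 2.99% lower and 2.13% higher, so few would be past it). Ifnar1 was 19.6, 21.5, 21 and 22.7 CPM there. In stem-marker cells 1 of 11 was 2-fold lower (background 2.85%): Ifngr2, a chain of the type II receptor, at 23.4, 17, 3.47 and 6.34 CPM (log2 ratio -1.82, -2.86 to -1.11). Ifngr1, the other chain, was higher there (0.41), Ifnar2 lower (-0.57), and Ifnar1 at -0.06 with an interval spanning 0. In progenitor-marker cells Ifngr2 was at -0.51. Of 10 sensing genes tested in neutrophil-marker cells 1 was 2-fold lower (background 2.99%), Ikbke, a kinase that activates Irf3 and Irf7, at 23.8, 21.7, 8.68 and 7.96 CPM (-1.37). Tmem173 (STING), the adaptor of cytosolic DNA sensing, was 2-fold lower over all kept cells (-1.02), in stem-marker cells at 26.2, 32.9, 4.62 and 5.71 CPM (-2.38) and in monocyte-marker cells at 50.6, 47.3, 21 and 22.7 CPM (-1.14). Irf5 was 2-fold lower in monocyte-marker cells as well (-1.05). These were 1 of 12, 1 of 7 and 2 of 9 genes tested, against 5.36%, 2.85% and 1.56% of all genes.

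Further interferon targets outside the member list gave 2 lower and 1 higher by 2-fold of 38 tested in neutrophil-marker cells (background 2.99% and 2.13%), shares not far from those of all genes. Ifitm2, a paralog of Ifitm3, was 429, 447, 74.4 and 130 CPM (log2 ratio -2.08), and the chemokine Cxcl10 was 1.95, 2.16, 0.175 and 0.234 CPM (-3.14). Irf8, a factor of monocyte fate, was 4.77, 5.37, 4.17 and 12.1 CPM (1.07), higher only in hashtag 2. In stem-marker cells 5 of 37 were 2-fold lower (background 2.85%), among them Irf8, Irf1 and Ly6a. Irf8 was the lowest, at 29, 34.8, 9.24 and 2.54 CPM (-2.60, -3.68 to -1.88), opposite to its library ratio in neutrophil-marker cells. Irf1 was 34.8, 36.0, 18.5 and 13.9 CPM, and Ly6a, the Sca-1 antigen, 16.0, 31.2, 4.62 and 5.07 CPM. In progenitor-marker cells 2 of 38 were 2-fold lower (background 1.35%), and in monocyte-marker cells 2 of 37 (background 1.56%). None was 2-fold higher in either (background 0.864% and 0.873%). By direction alone, a larger share of these targets than of all genes had a ratio below 0 in each cell set. The counts were 35 of 37 in stem-marker (background 50.5%) and 30 of 38 in progenitor-marker cells (background 55%). They were 29 of 37 in monocyte-marker (background 52.6%) and 27 of 38 in neutrophil-marker cells (background 56.8%). Ifitm1, next to Ifitm3, was 40.2, 29.5, 2.80 and 2.02 CPM in progenitor-marker cells (-3.93) and 44.1, 40.5, 3.53 and 2.88 CPM in monocyte-marker cells (-3.76). The Ifitm genes did not differ alike across sets. Ifitm2 was at -0.23 in progenitor-marker, -0.15 in monocyte-marker and -0.001 in stem-marker cells, where Ifitm3 was at -1.13, -1.33 and -0.59. Ifitm1 was at -0.38 in stem-marker cells, from 268, 216, 61.2 and 252 CPM. Between libraries it was thus lower for hashtag 1 and higher for hashtag 2.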

How the data were processed

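Each library was made with 10x Genomics 3-prime chemistry with antibody tags, per the labels' protocols. The deposited counts are UMIs per gene and cell barcode, not normalized. The file headers name Cell Ranger 7.1.0 as the source, and the submitters' processing notes name mm10. The control files held 7827 barcodes and 122130256 gene UMIs, the others 7883 and 129736034, and 17 barcodes occurred in both.

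From these counts, cells with at least 500 genes and under 10% mitochondrial UMIs were kept (349 and 214 barcodes failed). Scrublet's automatic threshold marked 1 and 0 cells and had not worked, so the top 6% by its score were left out (467 and 463 cells). A hashtag was called at 100 UMIs and 5 times the other; 204 and 451 kept cells carried both and 48 and 39 neither.

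Neutrophil-marker cells had at least 5% of UMIs from 10 markers. Monocyte-marker cells had 20 UMIs over at least 4 of 10 markers, stem-marker cells 40 UMIs over at least 4 of 9 with progenitor markers under 0.5%, and progenitor-marker cells 1% of UMIs from 5 markers. Thresholds were set after viewing the marker distributions. Cells with at least 3 genes of a B, T or NK, dendritic, macrophage or erythroid list, or 4 of a megakaryocyte or basophil list, were left out (479 and 251), as were unassigned cells (305 and 128). In the 4 sets each such list took at most 0.0719% of UMIs.

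UMIs were summed per library, set and hashtag and divided by all gene UMIs. Log2 ratios add 1 UMI to each sum, with exact conditional (Clopper-Pearson) intervals. Members named in full are the 6 with the most UMIs and the 3 highest and 3 lowest ratios per set among those with at least 50 UMIs, beside members shown for their role. Members and lists were chosen with earlier results of these data known. Coordinates are from GENCODE M21 (GRCm38), which matched 99.6% of gene IDs. Python 3.11.15, scanpy 1.11.5, scipy 1.17.1 and, for TMM, edgeR 4.0.16 were used. The ratio calculation was also run on simulated Poisson counts with planted changes. Those counts held no variation between cells, hashtags or libraries, so that run checks the calculation and not the spread between libraries.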

Additional observations from a re-analysis of the deposited data

Results flagged for a closer look

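For 3 members, both hashtags and the library interval lay on one side of 0 in a cell set and on the opposite side in another. A further 5 (Irf9, Ifi27l2a, Parp14, Irgm1 and Herc6) had non-overlapping populations in opposite directions in different sets, but with an interval that spanned 0 in at least 1 of them. These differences between cell sets were not tested. The share of all genes that ran in opposite directions was not counted. Within a set, 22% to 25.6% of all genes lay above without overlap, and 26.7% to 43.5% lay below. Ifit2 had a log2 ratio (library labelled Utx-deleted over control) of 0.70 in stem-marker cells, against -0.40 in monocyte-marker and -0.66 in neutrophil-marker cells. Bst2 was at 0.22 in neutrophil-marker cells, against -0.69 in stem-marker, -0.15 in progenitor-marker and -0.42 in monocyte-marker cells. In neutrophil-marker cells 7 of 9 stem markers, 7 of 10 monocyte markers and 2 of 5 progenitor markers were higher in the library labelled Utx-deleted, and their part was not tested. Slfn5 was at 2.09 in monocyte-marker cells, where 36 of the 74 UMIs of the library labelled Utx-deleted lay in 5 cells, and at -3.03 in stem-marker cells, where that library had 1 UMI.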

How the results depend on the processing

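No paired analysis was possible because each group has 1 library and the labels do not say what the hashtags mark. Of 153 alternative values of the summed ratios, medians and counts of members, 113 stayed within the main value's counting interval (for medians, the median bounds over members; for counts, 1.5 times), 37 left it and 3 reversed; of 330 for named members the counts were 260, 60 and 10. Such intervals are wide for medians. With hashtag 1 alone, the summed log2 ratio was -0.13 in all kept cells, -0.41 in stem-marker, -0.13 in progenitor-marker, -0.046 in monocyte-marker and -0.16 in neutrophil-marker cells, and with hashtag 2 alone -0.43, -0.63, -0.25, -0.35 and -0.35. The member median with hashtag 1 was -0.29 in stem-marker cells (main -0.60), -0.095 in all kept cells and -0.05 in neutrophil-marker cells, and reversed to 0.061 in progenitor-marker and 0.055 in monocyte-marker cells; with hashtag 2 it was -0.60 in all kept cells and -0.39 in neutrophil-marker cells (main -0.22), where Retnlg-low cells gave -0.099. Doubled thresholds took the progenitor-marker median from -0.15 to -0.031. Cells thinned to 2000 UMIs (165 and 79 shallower cells left out) gave summed ratios of -0.70 in stem-marker, -0.11 in progenitor-marker and -0.055 in monocyte-marker cells, and a monocyte-marker median of 0.12, reversed. TMM scaling gave -0.18 (sum) and -0.29 (median) in all kept cells and -0.26 (sum) in neutrophil-marker cells. Doubled marker thresholds gave -0.61 in stem-marker and -0.093 in progenitor-marker cells, and halved ones -0.24 in progenitor-marker cells. Without cells of both hashtags the sum was -0.29 in all kept and -0.27 in neutrophil-marker cells, without the 50 most abundant genes -0.23 in both, and without doublet removal -0.32 in neutrophil-marker cells. Without Ifitm3, Bst2 and Ifi27l2a it was -0.24 in all kept, -0.079 in progenitor-marker, -0.015 in monocyte-marker and -0.26 in neutrophil-marker cells. In Retnlg-low neutrophil-marker cells, a split added after the data were seen, the sum over all members, Ifitm3 included, was -0.32.

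Counts of members past 2-fold depended on the setting. Over all kept cells 5 became 11 with hashtag 2 alone and 12 at 1.5-fold. In neutrophil-marker cells 6 (5 lower and 1 higher) became 2 with hashtag 1 alone, 9 with hashtag 2 alone, 3 among members with at least 500 UMIs and 11 at 1.5-fold. Named members that reversed were Sp100 in all kept cells (main -0.09; 0.035 with TMM, 0.13 with hashtag 1), Samd9l in all kept cells (main -0.054; 0.071 with TMM, 0.021 without the 50 most abundant genes, 0.17 with hashtag 1), Ifi44 in stem-marker cells (0.18 with hashtag 1), Dhx58 in stem-marker cells (-0.10 with hashtag 2), Isg15 in monocyte-marker cells (0.40 thinned, 0.30 with hashtag 1) and Ifi27l2a in monocyte-marker cells (-1.29 with hashtag 2). For Ifi44 the sign came from the 1 UMI added to each sum, since its hashtag 1 levels were nearly equal without it. Apart from this and the changed sets and scalings themselves, the cause was not tested. The number of cells limits the stem-marker set: 92 cells of the library labelled Utx-deleted gave 2211 member UMIs. Ratios there on under 100 UMIs carry intervals over 1 log2 unit wide.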
